A study of Mus musculus with 12 samples.

Results

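The chemokine and growth cytokine genes described here are 9 of the 21638 genes in the deposited count table, listed by name. The list was chosen with earlier results of these data known. They comprise 7 chemokine ligands (Cxcl1, Cxcl9, Cxcl10, Cxcl12, Cxcl16, Ccl2 and Cx3cl1), the chemokine-scavenging receptor gene Ackr3 and the macrophage growth factor gene Csf1. The study sorted endothelial cells from the brain cortex of adult mice, keeping cells with surface CD31 and without CD41 or CD45, and sequenced their RNA from very small inputs. Its 4 groups of 3 libraries were WT, Hdac2 ECKO (lox alleles of the histone deacetylase gene Hdac2), Ezh2 ECKO (lox alleles of the Polycomb methyltransferase gene Ezh2) and beta-catenin GOF (a lox allele of Ctnnb1 whose recombination activates beta-catenin constitutively). Recombination in all 3 mutants was driven by Cdh5CreERT2, an endothelial Cre switched on by tamoxifen. Mice received 5 doses of tamoxifen at 75 mg/kg, and brains were taken 2 months later. The labels do not say whether the WT mice carried the Cre or were given tamoxifen. No label says that libraries of 1 group came from separate animals, so p-values measure only the spread between these libraries.

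Chemokines are small secreted proteins that guide leukocytes and progenitor cells by activating G protein-coupled receptors. Vessel-wall cells hold them on heparan sulfate at the luminal surface, where rolling leukocytes meet them. In brain endothelium Cxcl12 is known for retaining Cxcr4-bearing cells at the vessel, Ackr3 for removing Cxcl12, Cx3cl1 for signalling to Cx3cr1-bearing microglia and monocytes, and Csf1 for sustaining macrophages. Cxcl9 and Cxcl10 are classical interferon-gamma targets that attract Cxcr3-bearing T cells, whereas Cxcl1 and Ccl2 are inducible through NF-kappaB and attract neutrophils and monocytes, respectively.

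The bases upstream of 4 of the genes are shown because the levels below are set beside interferon and NF-kappaB genes, and because 1 mutant activates beta-catenin. RefSeq (GRCm38.p6) gave an upstream sequence for 7 of the 9 genes; Ccl2 and Cxcl16 were not matched. Each sequence is the 250 bases before the RefSeq start on the gene's own strand, 5′ to 3′. Cxcl10 lies at chr5:92348890-92349139 (minus strand), Cxcl9 at chr5:92328080-92328329 (minus strand), Cxcl1 at chr5:90890995-90891244 (plus strand) and Cxcl12 at chr6:117168285-117168534 (plus strand). Capitals mark matches, on either strand, to a kappaB pattern (GGGA, 2 free positions, T, 1 free position, CC), an interferon-stimulated response element (TTTC, 2 free positions, TTTC), the letters TATAAA or a TCF/LEF core (ATCAAAG).
Cxcl10: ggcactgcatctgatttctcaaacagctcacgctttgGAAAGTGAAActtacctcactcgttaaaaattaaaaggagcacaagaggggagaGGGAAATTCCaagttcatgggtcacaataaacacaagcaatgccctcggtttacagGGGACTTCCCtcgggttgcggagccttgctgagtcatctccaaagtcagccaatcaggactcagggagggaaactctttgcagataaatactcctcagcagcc
Cxcl9: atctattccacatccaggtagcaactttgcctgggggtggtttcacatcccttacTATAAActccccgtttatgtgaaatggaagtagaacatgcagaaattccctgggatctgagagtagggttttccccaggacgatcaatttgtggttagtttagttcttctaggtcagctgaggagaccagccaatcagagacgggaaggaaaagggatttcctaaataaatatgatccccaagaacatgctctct
Cxcl1: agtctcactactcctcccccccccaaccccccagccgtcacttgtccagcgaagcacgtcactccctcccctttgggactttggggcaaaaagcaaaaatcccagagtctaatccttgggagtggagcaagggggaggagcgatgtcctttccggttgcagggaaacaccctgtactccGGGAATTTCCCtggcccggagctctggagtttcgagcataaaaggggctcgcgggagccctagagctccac
Cxcl12: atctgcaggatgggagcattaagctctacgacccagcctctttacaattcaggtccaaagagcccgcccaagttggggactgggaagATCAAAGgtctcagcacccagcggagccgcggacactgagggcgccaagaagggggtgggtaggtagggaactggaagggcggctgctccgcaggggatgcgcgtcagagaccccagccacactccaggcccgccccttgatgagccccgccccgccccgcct
The kappaB pattern was found in 3 of the 7 upstream sequences (Cxcl1, Cxcl10 and Csf1) and in 3.33% of 32851 promoters of the same length. In Cxcl1 overlapping bases matched on both strands, and Cxcl10 held 2 separate stretches in capitals for this pattern. The interferon response element was found in Cxcl10, 204 to 213 bases before its start, and in 2.98% of all promoters. The letters TATAAA stood 190 to 195 bases before the start of Cxcl9, 3 to 8 before that of Ackr3 and 1 to 6 before that of Cx3cl1, and in 12.4% of all promoters, and the TCF/LEF core in Cxcl12 and in 3.21%. A gamma-activated site pattern (TTCNNNGAA), which 7.02% of promoters held, had no match in the 7. A match describes letters only and is not evidence of binding.

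Some facts on the libraries bear on every comparison. Totals ran from 24781070 to 36109975 counts, and 13922 to 17091 genes were above 0. The 12 endothelial markers, none at 0 throughout a group, had a summed level of 29192 to 49341 CPM (counts scaled to a common library size, with library totals adjusted by TMM). Hdac2 stood at 129 ± 30.1 CPM in WT and 96.5 ± 15.1 in Hdac2 ECKO (SD, n = 3), and its difference did not pass the test (edgeR adjusted p 0.22). Ezh2 itself stood at 6.75 ± 3.52 CPM in WT and 8.92 ± 3.36 in the Ezh2 ECKO-labelled libraries, so no lower count bears that label out. The whole gene was counted, so a lost exon would not by itself lower these values, and they do not settle the label. Ctnnb1 stood at 654 ± 138 CPM in WT and 583 ± 109 in beta-catenin GOF; the count does not report on activation. WT replicate 2 stood apart in interferon genes. The Ezh2 ECKO-labelled replicate 2 held 152 CPM over 10 markers of leukocytes other than macrophages. Replicates 1 and 3 of that group held 0.518 and 2.48 CPM. The sum was 8.26 to 31.6 CPM in WT, 1.04 to 20.6 in Hdac2 ECKO and 1.66 to 2.80 in beta-catenin GOF. Cd4 was at 0 in every library, further markers were at 0 throughout some groups, and none of the 5 tested passed against WT. The summed level of 7 platelet and red cell markers, none at 0 throughout a group, was 19623 to 33743 CPM in WT, 218 to 11765 in Hdac2 ECKO, 1469 to 3649 in the Ezh2 ECKO-labelled libraries and 290 to 20866 in beta-catenin GOF. Alas2, the erythroid heme synthesis enzyme, was the only 1 of the 7 to pass against WT in any mutant, and fell by 4.10 on the log2 scale in Hdac2 ECKO (SE 0.98, edgeR adjusted p 0.034). There 5.38% of all genes passed as lower. The 8 astrocyte markers summed to 24.3 to 36.2 CPM in WT, 50.8 to 76.4 in Hdac2 ECKO, 44.2 to 79.8 in the Ezh2 ECKO-labelled libraries, where S100b was at 0, and 37.9 to 54.1 in beta-catenin GOF, where Aqp4 was at 0; none of the 4 tested passed against WT. The part of these cells in the differences reported below was not tested. Long genes were higher relative to short ones in the mutants: the log2 fold change against WT had a rank correlation with gene length across genes of 0.44 in Hdac2 ECKO, 0.29 in the Ezh2 ECKO-labelled libraries and 0.14 in beta-catenin GOF.

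In the WT endothelium the 9 genes covered a wide range of levels. Per kilobase of gene model, Cxcl12 led with 63.6 ± 0.18 CPM per kilobase (SD, n = 3). Cxcl1 (25.5 ± 6.31), Ackr3 (23.7 ± 9.12) and Cxcl10 (13.6 ± 15.1) followed in CPM per kilobase, and their libraries overlapped one another. Cx3cl1 (4.18 ± 0.85) and Csf1 (2.61 ± 0.84) came next on that scale and overlapped each other, and the highest Cx3cl1 library just reached the lowest Cxcl10 library. Cxcl16 (0.74 ± 0.48), Ccl2 (0.30 ± 0.27) and Cxcl9 (0.29 ± 0.19) were lowest, all 3 overlapping. Cxcl12 made up 47.3% of the summed per-kilobase level of the 9 genes in WT, 69.1% in Hdac2 ECKO, 68.0% in the Ezh2 ECKO-labelled libraries and 52.2% in beta-catenin GOF. Cxcl12 was first in all 4 groups, while Cxcl10, the fourth in WT, was below Cx3cl1 and Csf1 in Hdac2 ECKO and in the Ezh2 ECKO-labelled libraries.

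**Figure D1:**
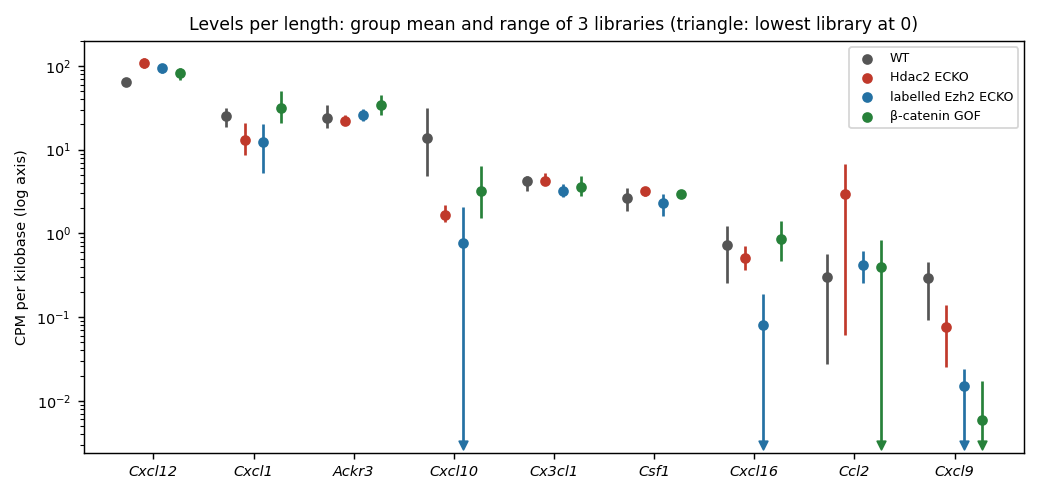
Mean level per kilobase of gene model (CPM per kilobase, log axis) for each gene and group, with lines from the lowest to the highest of 3 libraries; a triangle marks a lowest library at 0. Cxcl12 is highest in every group, and the longest line is that of Cxcl10 in the Ezh2 ECKO-labelled libraries (0 to 2.06). Lowest libraries at 0 occur for Cxcl10, Cxcl16, Ccl2 and Cxcl9.

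Of the 9 genes, 8 averaged 10 counts or more over the 12 libraries and were tested; Cxcl9, at 8.83, was not. None of the 8 passed edgeR's quasi-likelihood test at an adjusted p of 0.05 against WT in any mutant. The background share of all 12577 genes past that threshold was 9.2% for Hdac2 ECKO, 1.03% for the Ezh2 ECKO-labelled libraries and 0% for beta-catenin GOF. At an unadjusted p under 0.05 there were 3 of 8 for Hdac2 ECKO (background 33.1%), 4 of 8 for the Ezh2 ECKO-labelled libraries (24.7%) and 0 of 8 for beta-catenin GOF (6.06%). Values of the mutant and of WT did not overlap for 2 of 8 genes in Hdac2 ECKO (37.8% of all genes), 3 of 8 in the Ezh2 ECKO-labelled libraries (22%) and 1 of 8 in beta-catenin GOF (12.7%). The 2 shares in the Ezh2 ECKO-labelled libraries were above their background, on only 8 genes; the others were close to it or below it. All 3 comparisons share the WT libraries, so their differences from WT are not independent of one another. Other settings called up to 3 of the genes against WT in Hdac2 ECKO, up to 4 in the Ezh2 ECKO-labelled libraries and up to 1 in beta-catenin GOF. A setting that called 3 and 4 of them in the first 2 comparisons also called 5374 and 3743 of the 12577 genes.

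**Figure D2:**
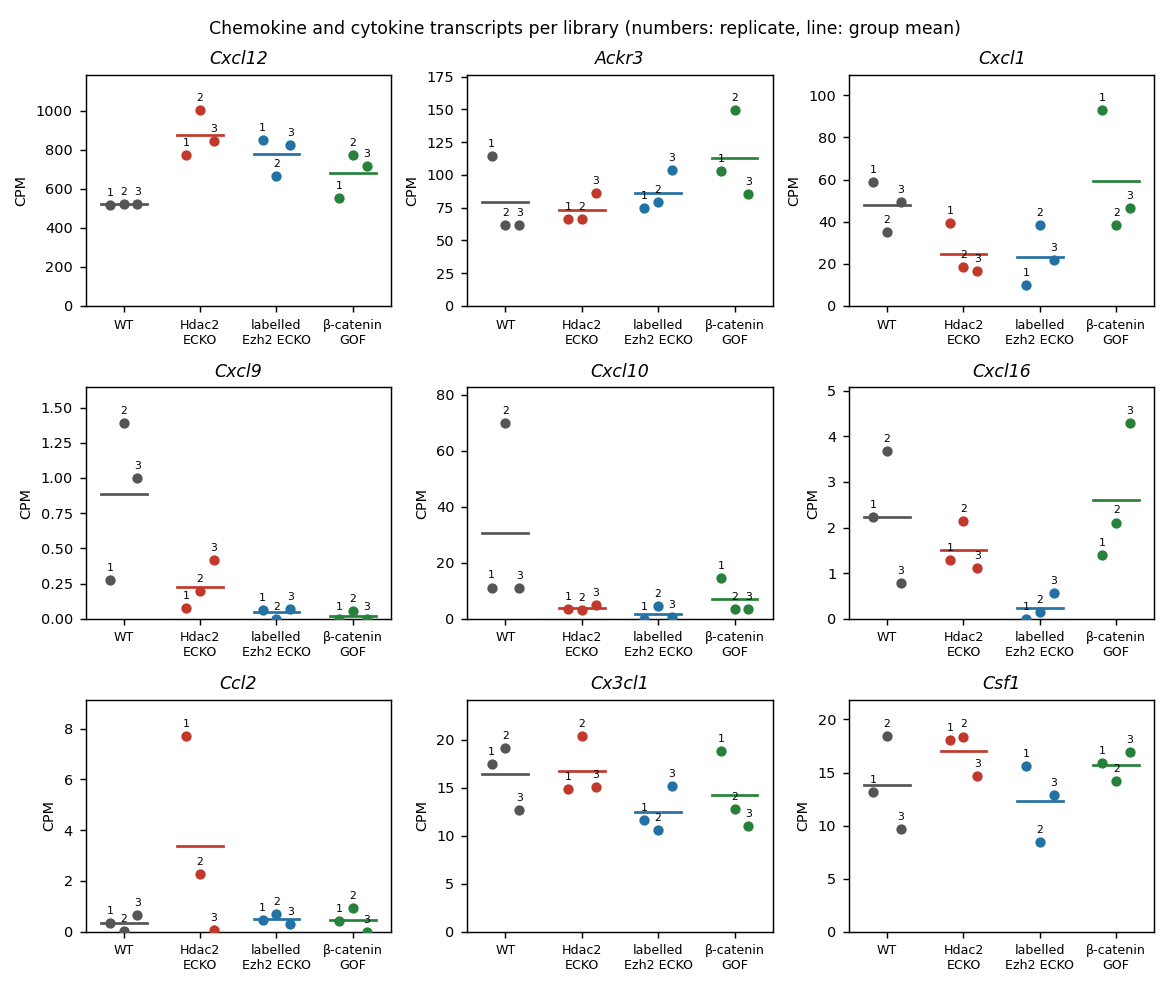
CPM in each library for the 9 genes, by group, with the replicate number above each point and the group mean as a line; each panel has its own axis from 0. The 3 WT points of Cxcl12 lie together at 519 to 522 CPM, below all 9 mutant libraries, and Cxcl10 has 1 WT library far above the other 11.

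Cxcl12 (ENSMUSG00000061353.11, chr6:117168535-117181367, plus strand) encodes the ligand of Cxcr4 and Ackr3. Its level in WT replicates 1, 2 and 3 was 519, 520 and 522 CPM. It was 775, 1004 and 845 CPM in Hdac2 ECKO, 848, 665 and 825 in the Ezh2 ECKO-labelled libraries, and 553, 773 and 717 CPM in beta-catenin GOF. All 9 mutant libraries therefore lay above all 3 WT libraries, whose values lay close together. The log2 fold change against WT was 0.75 (SE 0.23, edgeR adjusted p 0.051) in Hdac2 ECKO, 0.58 (SE 0.23, adjusted p 0.14) in the Ezh2 ECKO-labelled libraries and 0.39 (SE 0.23, adjusted p 0.89) in beta-catenin GOF. The first value fell just short of the threshold and passed under 6 of 17 other settings, DESeq2 (adjusted p 0.016) among them; adjusted p ran from 0.0025 to 0.34 over those settings. With the trend on gene length removed from every library the differences were 0.33, 0.31 and 0.29 in the same order (edgeR adjusted p 0.34, 0.39 and 0.86). Cxcl12, whose gene model of 8176 bases is the longest of the 9, thus had a smaller Hdac2 ECKO difference, with adjusted p away from the threshold.

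Mural-cell transcripts leaned higher in Hdac2 ECKO and in beta-catenin GOF. The summed level of 12 pericyte and smooth muscle markers was 71.1 to 132 CPM in WT, 146 to 359 in Hdac2 ECKO, 64.3 to 86.3 in the Ezh2 ECKO-labelled libraries and 130 to 442 in beta-catenin GOF. None of the 12 was at 0 throughout a group, and 5 of them (Myh11, Pdgfrb, Higd1b, Cspg4 and Rgs5) passed the test as higher in Hdac2 ECKO, as did 3.82% of all genes. In beta-catenin GOF 11 of the 12 had a log2 fold change above 0, with a median of 1.35, and 0 passed. The part of mural cells in the Cxcl12 level was not tested. In sorted bulk RNA, a change in the number of cells of a type and a change in RNA per cell cannot be told apart.

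Ackr3 (ENSMUSG00000044337.5, chr1:90203980-90216751, plus strand) encodes a receptor that takes up Cxcl12 without G protein signalling. It stood at 115, 61.5 and 62.0 CPM in WT against 66.6, 66.5 and 86.5 in Hdac2 ECKO, 74.4, 79.5 and 103 in the Ezh2 ECKO-labelled libraries, and 103, 150 and 85.7 in beta-catenin GOF. WT replicate 1 was high, and every mutant overlapped WT. The log2 fold changes of Ackr3 were −0.12 (95% interval −0.74 to 0.51), 0.11 (−0.51 to 0.74) and 0.51 (−0.12 to 1.13), none past the test (edgeR adjusted p 0.81, 0.85 and 0.89). In Hdac2 ECKO the sign of the Ackr3 difference turned with library totals as the only scaling (0.11) and after removal of the length trend (0.13). Cxcr4, the signalling receptor of Cxcl12, was low in these cells, at 0.0652 to 2.15 CPM over the 12 libraries.

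Cxcl10 (ENSMUSG00000034855.13, chr5:92346638-92348889, minus strand) is an interferon-induced ligand of Cxcr3. In WT it stood at 11.2, 69.9 and 10.9 CPM. In Hdac2 ECKO it was 3.33, 3.07 and 4.85 CPM, in the Ezh2 ECKO-labelled libraries 0, 4.64 and 0.50, and in beta-catenin GOF 14.5, 3.48 and 3.60. All Hdac2 ECKO and labelled Ezh2 ECKO libraries lay below all WT libraries, whereas beta-catenin GOF replicate 1 lay between WT values. The log2 fold change was −3.03 (SE 1.08, edgeR adjusted p 0.074), −4.18 (SE 1.15, adjusted p 0.071) and −2.10 (SE 1.03, adjusted p 0.84), and none passed. Without WT replicate 2 the Cxcl10 differences shrank to −1.56, −2.69 and −0.62 (edgeR adjusted p 0.37, 0.25 and 0.998). Without the Ezh2 ECKO-labelled replicate 2, the difference of that group was −6.95 and passed (edgeR adjusted p 0.0092), as it did without WT replicate 3 (−4.58, adjusted p 0.032) and with replicate number as a block (−4.34, adjusted p 0.039). DESeq2 gave no adjusted p for Cxcl10 against WT. Over the other settings it ran from 5.0e-10 to 0.37 in Hdac2 ECKO and from 8.1e-17 to 0.25 in the Ezh2 ECKO-labelled libraries. The lowest values came without a filter on low counts, where the variance was taken from a trend over all genes. They do not measure the spread of Cxcl10 between its own libraries. The Ezh2 ECKO-labelled replicate 2, the highest of its group for Cxcl10, is the library with the highest sum of leukocyte markers. The part of leukocytes in the Cxcl10 values was not tested. Cxcl10 lies within or across the span of Art3 on the opposite strand, and overlap of their exons was not examined. The use of strand in counting is not given in the sources used here. Whether reads of the 2 genes were told apart is therefore not known.

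Cxcl9 (ENSMUSG00000029417.9, chr5:92321347-92328079, minus strand), another Cxcr3 ligand, lies next to Cxcl10 with 18559 bases between them. It was detected by few reads: 8, 44 and 28 counts in WT against 2, 6 and 12 in Hdac2 ECKO, 2, 0 and 2 in the Ezh2 ECKO-labelled libraries, and 0, 2 and 0 in beta-catenin GOF. WT replicate 1 overlapped Hdac2 ECKO, while every library of the other mutants was below every WT library. Over summed counts, scaled to library totals, WT exceeded Hdac2 ECKO by 3.88-fold (exact 95% interval 2.36 to 6.69), the Ezh2 ECKO-labelled libraries by 19.0-fold (7.14 to 71.5) and beta-catenin GOF by 46.0-fold (12.3 to 386). These intervals cover counting error only and treat mates as separate, which makes them too narrow. With the filter on low counts removed, Cxcl9 did not pass against WT in any mutant (edgeR adjusted p 0.47, 0.20 and 0.38), and DESeq2 called it in the Ezh2 ECKO-labelled libraries (adjusted p 0.032).

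**Figure D3:**
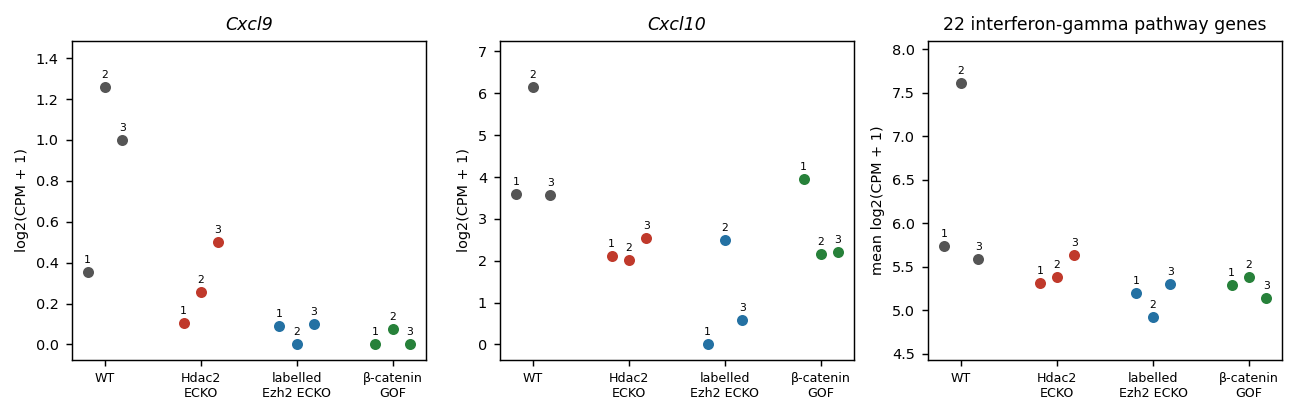
Levels of Cxcl9 and Cxcl10 as log2(CPM + 1), and the mean log2(CPM + 1) of 22 interferon-gamma pathway genes, in each library by group with replicate numbers; axes do not start at 0 on the right. WT replicate 2 is the highest library in all 3 panels. In the pathway mean WT replicate 1 (5.74) also lies above the mutant range of 4.92 to 5.63. WT replicate 3 (5.59) lies below Hdac2 ECKO replicate 3 (5.63) and above every other mutant library.

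The interferon-gamma pathway, from its receptor through Jak kinases to Irf1 and the immunity GTPases, was measured through 22 of 24 listed genes. Of the 22 genes, 7 fell in Hdac2 ECKO and 0 rose, 3 fell in the Ezh2 ECKO-labelled libraries and 0 rose, and 0 of 22 passed in beta-catenin GOF. Of all genes, 3.82% passed as higher and 5.38% as lower in Hdac2 ECKO, and 0.342% and 0.684% in the Ezh2 ECKO-labelled libraries. The list's median log2 fold change was −1.34, −1.64 and −1.47, against 0.10, 0.05 and 0.01 for all genes tested. Socs1, a feedback inhibitor of Jak kinases, fell by 3.29 on the log2 scale in Hdac2 ECKO (SE 0.56, edgeR adjusted p 0.032), from 15.5, 16.8 and 6.90 CPM in WT to 1.59, 1.44 and 0.97. In the Ezh2 ECKO-labelled libraries Socs1 fell by 2.82 (SE 0.55, edgeR adjusted p 0.045), to 0.91, 3.23 and 1.44 CPM. Irf1, an interferon-induced transcription factor, fell by 1.85 in Hdac2 ECKO (SE 0.39, edgeR adjusted p 0.032) and by 2.23 in the Ezh2 ECKO-labelled libraries (SE 0.40, adjusted p 0.044). Igtp, an immunity GTPase, stood at 70.0, 1865 and 92.5 CPM in WT; it fell by 3.58 in Hdac2 ECKO (SE 0.89, edgeR adjusted p 0.036) and by 4.06 in the Ezh2 ECKO-labelled libraries (SE 0.91, adjusted p 0.048). Ifngr1, the ligand-binding receptor chain, fell by 1.28 in Hdac2 ECKO (SE 0.35, edgeR adjusted p 0.040), and Irgm1, Psmb8 and Psmb9 fell there too. In beta-catenin GOF the smallest p of the list was that of Socs1, at −2.53 on the log2 scale (SE 0.54, edgeR adjusted p 0.35).

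WT replicate 2 was the highest of all 12 libraries for 17 of the 22 genes, with a median level 2.79 times the highest of the other 11. It was also the highest for Cxcl9 and Cxcl10. Without it, the list's median log2 fold change was −0.11, −0.61 and −0.45, against −1.62, −2.05 and −1.71 without WT replicate 1. None of the 22 genes passed in any of the 3 comparisons without either library; across all genes only 0, 2 and 0 then passed without WT replicate 2 and 0, 2 and 1 without WT replicate 1, so the loss of calls does not single out a library. For Socs1, all 3 WT libraries lay above all 9 mutant libraries. With the length trend removed, 3 of the 22 genes fell in Hdac2 ECKO and 2 in the Ezh2 ECKO-labelled libraries.

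Cxcl1 (ENSMUSG00000029380.11, chr5:90891241-90893115, plus strand) encodes a neutrophil attractant. It stood at 58.6, 35.1 and 49.5 CPM in WT against 39.3, 18.5 and 16.4 in Hdac2 ECKO, 9.91, 38.2 and 21.7 in the Ezh2 ECKO-labelled libraries, and 93.1, 38.5 and 46.3 in beta-catenin GOF. A single library of Hdac2 ECKO and 1 of those labelled Ezh2 ECKO reached into the WT range, and beta-catenin GOF replicate 1 was the highest of all 12. The log2 fold changes were −0.95 (SE 0.47, edgeR adjusted p 0.17), −1.04 (SE 0.47, adjusted p 0.19) and 0.31 (SE 0.46, adjusted p 0.95). Without the Ezh2 ECKO-labelled replicate 2, Cxcl1 fell by 1.60 in that group (edgeR adjusted p 0.035; 0.022 to 0.46 over 17 settings). With the length trend removed the Cxcl1 differences were −0.29, −0.76 and 0.39; its gene model is 1875 bases long. Cxcl2, a close relative from the other chemokine ligands, fell by 2.40 in Hdac2 ECKO (SE 0.70, edgeR adjusted p 0.045), from 5.27, 2.34 and 10.8 CPM in WT to 0.53, 1.89 and 1.04, and was at −2.20 (SE 0.69, adjusted p 0.087) in the Ezh2 ECKO-labelled libraries. Cxcl2 was the only 1 of 12 tested ligands outside the 9 genes to pass in any mutant, and it did not pass without WT replicate 3, with scaling by library size alone or with the length trend removed. The share of all genes that passed in Hdac2 ECKO was 9.2%.

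Ccl2 (ENSMUSG00000035385.5, chr11:82035571-82037453, plus strand), the main ligand of the monocyte receptor Ccr2, was low throughout. Its counts were 10, 1 and 18 in WT against 204, 70 and 2 in Hdac2 ECKO, 14, 18 and 8 in the Ezh2 ECKO-labelled libraries, and 12, 36 and 0 in beta-catenin GOF. The Hdac2 ECKO libraries thus covered both the highest values and nearly the lowest of the 12. The log2 fold change was 3.30 (95% interval 0.14 to 6.45, edgeR adjusted p 0.14) in Hdac2 ECKO, 0.51 (−2.48 to 3.49) in the Ezh2 ECKO-labelled libraries and 0.42 (−2.55 to 3.39) in beta-catenin GOF. The 12 microglia and macrophage markers, of cells that the sort against CD45 would remove, summed to 78.2 to 99.5 CPM in WT, 45.6 to 62.7 in Hdac2 ECKO, 52.9 to 106 in the Ezh2 ECKO-labelled libraries and 58.4 to 86.5 in beta-catenin GOF. Tmem119 was at 0 in all 3 Hdac2 ECKO libraries, and 7 of the 12 (Cx3cr1, Tmem119, Aif1, Itgam, C1qb, Mrc1 and Trem2) in all 3 of beta-catenin GOF. Their part in the Ccl2 values was not tested. Ccl2 overlaps Gm17268 on the opposite strand.

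The NF-kappaB pathway, on which Cxcl1, Cxcl2 and Ccl2 depend for induction, had all 25 listed genes tested. In Hdac2 ECKO 1 rose and 2 fell, and in each of the other mutants 0 passed. The share of all genes in Hdac2 ECKO was 3.82% as higher and 5.38% as lower, so 3 calls among 25 genes were near the background. Nfkb1, an NF-kappaB subunit gene, rose by 1.16 on the log2 scale (SE 0.30, edgeR adjusted p 0.038), from 22.7, 34.6 and 28.8 CPM in WT to 77.8, 50.2 and 64.4. Nfkbia, which encodes the inhibitor IkappaB-alpha, fell by 1.20 (SE 0.32, edgeR adjusted p 0.040), and Bcl3, a nuclear IkappaB-family coactivator, fell by 1.63 (SE 0.45, adjusted p 0.041). The list's median log2 fold change was 0.18 in Hdac2 ECKO, against 0.10 for all genes. With the length trend removed, none of the 25 passed in any mutant, and with scaling by library size alone 5 rose and 1 fell in Hdac2 ECKO. The smallest p of the list in the Ezh2 ECKO-labelled libraries was that of Bcl3 (−1.62, SE 0.45, edgeR adjusted p 0.071), and in beta-catenin GOF that of Il1r1 (1.03, SE 0.48, adjusted p 0.82).

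Cxcl16 (ENSMUSG00000018920.11, chr11:70453983-70459984, minus strand) encodes a membrane-bound ligand of Cxcr6 that also takes up oxidised lipoprotein. Its counts were 64, 116 and 22 in WT against 34, 66 and 32 in Hdac2 ECKO, 0, 4 and 16 in the Ezh2 ECKO-labelled libraries, and 41, 80 and 148 in beta-catenin GOF. The Ezh2 ECKO-labelled libraries lay below the other 9, and the other 3 groups overlapped. The log2 fold change was −3.18 in the Ezh2 ECKO-labelled libraries (SE 1.06, edgeR adjusted p 0.0997), which did not pass, and −0.55 and 0.22 in Hdac2 ECKO and beta-catenin GOF (adjusted p 0.72 and 0.99). DESeq2 called Cxcl16 in the Ezh2 ECKO-labelled libraries (−3.23, adjusted p 0.0082), and edgeR's adjusted p for it ran up to 0.27, the value without WT replicate 2. Cxcl16 overlaps Zmynd15 on the opposite strand.

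Cx3cl1 (ENSMUSG00000031778.13, chr8:94772009-94782427, plus strand) encodes a membrane-anchored chemokine that is shed by Adam10 and Adam17. It stood at 17.4, 19.1 and 12.7 CPM in WT against 14.8, 20.4 and 15.1 in Hdac2 ECKO, 11.6, 10.6 and 15.2 in the Ezh2 ECKO-labelled libraries, and 18.9, 12.8 and 11.0 in beta-catenin GOF. All groups overlapped. The log2 fold changes of Cx3cl1 were 0.03 (95% interval −0.61 to 0.67), −0.40 (−1.04 to 0.24) and −0.21 (−0.85 to 0.43), so differences within those unadjusted bounds are not excluded. Of 18 tested genes for processing and presenting chemokines (sheddases, dipeptidyl peptidase, heparan sulfate enzymes and syndecans), 0 passed in any mutant, at 7, 5 and 0 with an unadjusted p under 0.05 (33.1%, 24.7% and 6.06% of all genes). Scaling by library size alone, which called 1462 of all genes as higher, called 2 of the 18 as higher in Hdac2 ECKO. The smallest p was that of Adam10 in Hdac2 ECKO (0.81, SE 0.27, edgeR adjusted p 0.061; 159, 150 and 184 CPM in WT against 345, 215 and 308 in Hdac2 ECKO) and in the Ezh2 ECKO-labelled libraries (0.74, adjusted p 0.12), and of Adam17 in beta-catenin GOF (0.45, adjusted p 0.86).

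Csf1 (ENSMUSG00000014599.10, chr3:107741048-107760469, minus strand) encodes the ligand of the macrophage receptor Csf1r. It stood at 13.2, 18.5 and 9.72 CPM in WT against 18.1, 18.4 and 14.7 in Hdac2 ECKO, 15.6, 8.42 and 12.9 in the Ezh2 ECKO-labelled libraries, and 15.9, 14.2 and 17.0 in beta-catenin GOF. Every mutant overlapped WT. The log2 fold changes of Csf1 were 0.31 (95% interval −0.35 to 0.96), −0.16 (−0.82 to 0.49) and 0.18 (−0.47 to 0.84), none past the test (edgeR adjusted p 0.51, 0.78 and 0.96). Among 10 other growth cytokines and interleukins tested, Tnfsf12, which encodes TWEAK, fell in Hdac2 ECKO (−2.13, SE 0.45, edgeR adjusted p 0.032). Tnfsf12 stood at 46.1, 63.4 and 31.8 CPM in WT against 8.40, 15.5 and 8.28 in Hdac2 ECKO. It was the only 1 of the 10 to pass there, where 9.2% of all genes passed, and 0 passed in the other mutants.

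**Figure D4:**
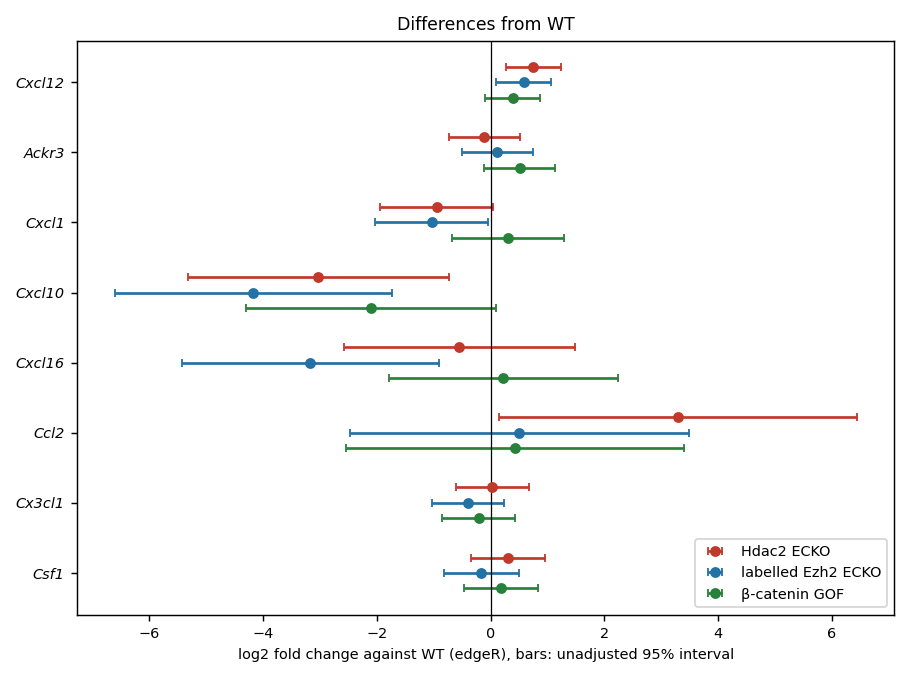
Log2 fold change against WT for the 8 tested genes (edgeR), with bars for the unadjusted 95% interval and a vertical line at 0. Cxcl12 lies right of 0 in all 3 mutants, Cxcl10 left of 0 in all 3, and no gene passed the adjusted threshold in any mutant.

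Of the signalling receptors for these ligands, several were scarce in the sorted cells. Cxcr3 was at 0 in 11 of the 12 libraries, with 2 counts in WT replicate 3. Ccr2, Cxcr2, Cxcr6 and Cx3cr1 were below 1 CPM in every library, and Csf1r ranged from 0.997 to 8.26 CPM. Of 23 listed receptors 10 were tested. In Hdac2 ECKO 1 passed as higher and 1 as lower, where 9.2% of all genes passed. In Hdac2 ECKO Ccr9, a gut-homing receptor, rose by 2.56 (SE 0.76, edgeR adjusted p 0.049) at 1.32 to 2.65 CPM against 0.139 to 0.601 in WT. Ccrl2, a non-signalling receptor that presents chemerin on endothelium, fell there by 1.28 (SE 0.35, edgeR adjusted p 0.041), from 73.4, 72.1 and 46.4 CPM to 20.2, 31.4 and 27.4. With the length trend removed none of the 10 passed in Hdac2 ECKO. Ccr9 had the smallest p of the list in the Ezh2 ECKO-labelled libraries (3.40, SE 0.78, edgeR adjusted p 0.051), and Ackr1, the venular chemokine carrier, in beta-catenin GOF (4.92, SE 1.53, adjusted p 0.63; 15.0, 0.897 and 189 CPM).

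None of the calls in Hdac2 ECKO named above, for Alas2, Socs1, Irf1, Igtp, Ifngr1, Cxcl2, Nfkb1, Nfkbia, Bcl3, Tnfsf12, Ccr9 and Ccrl2, held when WT replicate 1, WT replicate 2, Hdac2 ECKO replicate 1 or Hdac2 ECKO replicate 3 was left out. Across all genes the number called for Hdac2 ECKO then was 0, 0, 1 and 0, against 1157 with all 12 libraries. The calls for Myh11, Pdgfrb, Higd1b, Cspg4, Rgs5, Irgm1, Psmb8 and Psmb9 were thus also lost in the 3 fits with 0 calls. The calls for Socs1, Irf1 and Igtp in the Ezh2 ECKO-labelled libraries were likewise lost without WT replicate 1, WT replicate 2 or replicate 1 or 3 of that group.

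Between mutants none of the 8 genes passed edgeR's test either. The background share of genes past the threshold was 0.0239% for Hdac2 ECKO against the Ezh2 ECKO-labelled libraries, 0.0716% for beta-catenin GOF against Hdac2 ECKO and 0.0636% for beta-catenin GOF against the Ezh2 ECKO-labelled libraries. At an unadjusted p under 0.05 there were 1, 1 and 2 of the 8 in that order, against 8.19%, 21.1% and 13.2% of all genes. Cxcl16 was higher without overlap in Hdac2 ECKO than in the Ezh2 ECKO-labelled libraries, with a log2 difference of 2.62 (edgeR adjusted p 0.56), and in beta-catenin GOF than in the Ezh2 ECKO-labelled libraries, with 3.40 (adjusted p 0.28). Cxcl1 had a log2 difference of 1.26 in beta-catenin GOF against Hdac2 ECKO (edgeR adjusted p 0.17, 1 Hdac2 ECKO library overlapping) and of 1.35 against the Ezh2 ECKO-labelled libraries (adjusted p 0.30, no overlap). Cxcl12 was lower without overlap in beta-catenin GOF than in Hdac2 ECKO, by −0.36 (edgeR adjusted p 0.36). The groups' values did not overlap in 13.2%, 32% and 16.7% of all genes in these 3 comparisons.

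In the test for any difference among the 4 groups, which 0.731% of genes passed, none of the 8 passed, and 4 of 8 had an unadjusted p under 0.05 (26.4% of all genes). The edgeR adjusted p was 0.087 for Cxcl10, 0.14 for Cxcl1, 0.15 for Cxcl12, 0.17 for Cxcl16, 0.22 for Ccl2, 0.37 for Ackr3, 0.62 for Csf1 and 0.63 for Cx3cl1.

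**Figure D5:**
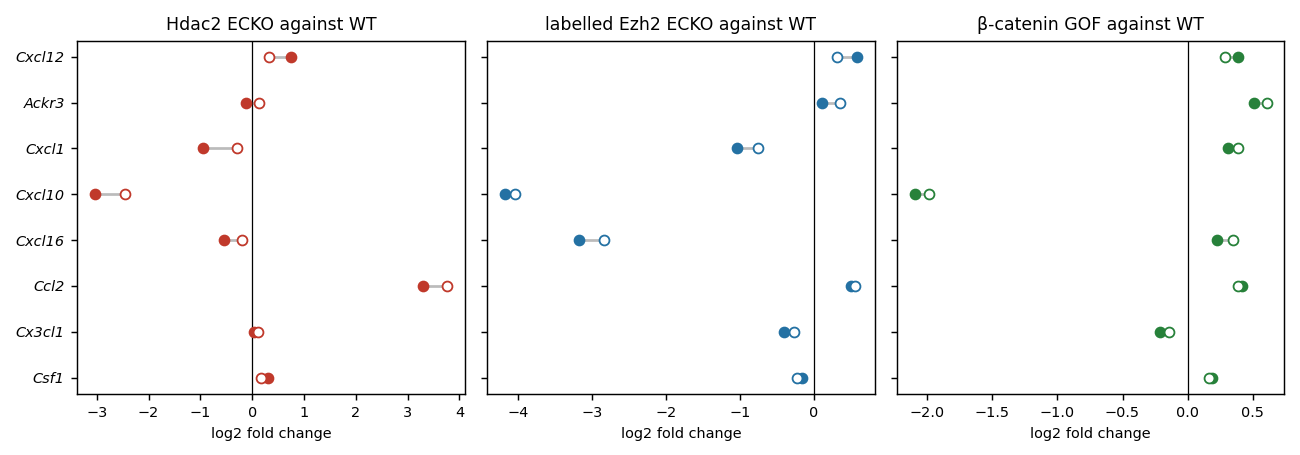
Log2 fold change against WT for the 8 tested genes before (filled) and after (open) the trend on gene length was removed from each library, by mutant; each panel has its own axis. In Hdac2 ECKO the Cxcl12 point moves from 0.75 to 0.33 and the Cxcl1 point from −0.95 to −0.29, while the shifts in beta-catenin GOF are small.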

How the data were processed

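The authors deposited 1 table of counts per gene and library for 21638 genes and 12 libraries, under a title with the word normalized. Whole numbers with unequal totals filled it. Even numbers made up 79.5% to 84.0% of values between 10 and 50 and 59.4% to 67.1% of values between 300 and 1000, so the table was treated as raw counts of mates. FastQC, cutadapt, STAR, featureCounts, DESeq2 and the build mm10 are named in the submitters' processing notes; versions, annotation and use of strand are not given in the sources used here. A SMART-Seq kit made the libraries, per the labels' protocols. Positions matched GENCODE M21 (GRCm38) for 99.1% of genes; coordinates are on that build, counted from 1, and gene lengths are those of the table.

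Differences were tested in edgeR 4.0.16 (R 4.3.3) by quasi-likelihood, with TMM scaling, 1 term per group over all 12 libraries, a mean count of at least 10 (12577 genes) and Benjamini-Hochberg adjustment within each of 6 comparisons, with a threshold of 0.05. SEs come from the F statistic. The 95% intervals are unadjusted. Alternatives used limma 3.58.1 on log2 of CPM plus a pseudocount, voom quality weights, DESeq2 1.42.0, other filters and scalings, a length-trend offset, a replicate block and each library left out. The fits were tested on simulated data. A count of 3 corresponds to 0.0831 to 0.121 CPM, counting error only. No pair within a group looked like 1 library deposited repeatedly (chi-square per degree of freedom at least 67.4 over 12 pairs).

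The members and gene lists were chosen with earlier results of these data known. The genes named are all 9 members; the targeted genes; up to 4 genes past the threshold per list and comparison against WT, or the smallest p; between mutants the member with the smallest p, or, added later, those without overlap; and the 2 genes most correlated with each member of mean count 50 or more. Receptors, mural markers and Irgm1, Psmb8 and Psmb9 were also named after their values were seen. Same-numbered libraries of Hdac2 ECKO and Ezh2 ECKO deviated together (r of 0.19, 0.43 and 0.13), and no other group pair had all 3 above 0.1.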

Additional observations from a re-analysis of the deposited data

How the results depend on the processing

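Against WT, the members' log2 fold changes comprised 24 results under 405 alternative settings: 377 kept the direction and 28 reversed it, with 14 results never reversed. No member passed in the main test, and the number of members called against WT in Hdac2 ECKO was 3 without a filter on low counts (Ccl2, Cxcl1 and Cxcl10), 3 with voom quality weights, 2 with limma at a pseudocount of 1, and 1 each with a mean count of at least 50, library size scaling, DESeq2, limma at 0.1 and a fit of the 2 groups alone. Leaving out 1 library of either group gave 0 to 0, while without the Ezh2 ECKO-labelled replicate 2, Cxcl10 and Cxcl12 passed, and without replicate 1 of that group Cxcl10 did; these libraries enter only through the shared spread. In the Ezh2 ECKO-labelled libraries it was 3 without a filter, 4 with voom, 2 with DESeq2, 1 with limma at either pseudocount and 1 with the replicate block (Cxcl10); leaving out 1 library gave 0 to 3, with 3 without replicate 2 of that group and 1 without WT replicate 3. In beta-catenin GOF it was 1 without a filter. Between mutants, beta-catenin GOF against Hdac2 ECKO gave 1 without a filter and 1 with voom, and beta-catenin GOF against the Ezh2 ECKO-labelled libraries gave 3 without a filter, 1 with DESeq2, 1 with voom and 0 to 2 with 1 library left out. For any difference among the groups the count was 4 without a filter, 3 with DESeq2, 1 with limma at 1, 3 with voom and 0 to 2 with 1 library left out. The cause of these moves was not tested, except that without a filter the fit tested 20343 genes and took each gene's prior variance from the trend alone. The p-values of that fit therefore do not weigh a gene's own spread between libraries.

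In Hdac2 ECKO, Cxcl16 (main −0.55) ran from −0.96 to 0.013 with 1 library left out. Cx3cl1 (main 0.03) was −0.021 with median-ratio scaling, −0.021 with DESeq2, −0.18 with voom, −0.0033 in the fit of 2 groups and −0.19 to 0.15 with 1 library left out. Ackr3 (main −0.12) was 0.11 with library size scaling, 0.17 with voom, 0.13 with the length trend removed and −0.27 to 0.24 with 1 library left out. In the Ezh2 ECKO-labelled libraries, with 1 library left out, Ccl2 ran from −0.034 to 1.34, Ackr3 from −0.060 to 0.47 and Csf1 from −0.40 to 0.10, and Ccl2 was −0.078 with the replicate block. In beta-catenin GOF, with 1 library left out, Cxcl1 ran from −0.17 to 0.55, Cxcl16 from −0.34 to 0.79, Ccl2 from −0.74 to 1.26 and Csf1 from −0.014 to 0.45. There Cxcl16 was −0.23 with voom and −0.0037 with the replicate block, Ccl2 was −0.53 with the block and Csf1 was −0.033 with voom. The block changed no other call on the members.

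Scaling by library size alone moved the median of all genes in Hdac2 ECKO by 0.25 and the share of calls that were higher from 41.5% to 80.4%; in the Ezh2 ECKO-labelled libraries that share went from 33.3% to 56.7%. Over all genes the number called against WT was 1157 (0 to 5374 over the alternatives) in Hdac2 ECKO, 129 (2 to 3743) in the Ezh2 ECKO-labelled libraries and 0 (0 to 157) in beta-catenin GOF. The settings with the most members called made these calls over all genes in the first 2 comparisons: 5374 and 3743 of 12577 genes with voom, 2279 and 1367 of 20343 without a filter, 2608 and 1365 with DESeq2, and 1712 and 348 with limma at 1. Cxcl9, and Ccl2 at a mean count of at least 50, were too low to be fitted under the filters. Alternatives for the gene lists were chosen after seeing the data.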

Other observations

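Hypoxia-inducible genes, which include known regulators of Cxcl12, were measured through 9 of 12 listed genes. Pdk1, which restrains pyruvate oxidation in mitochondria, rose in the Ezh2 ECKO-labelled libraries by 1.89 on the log2 scale (SE 0.40, edgeR adjusted p 0.048), from 5.34, 5.86 and 5.02 CPM in WT to 13.7, 16.1 and 30.4. It was the only 1 of the 9 to pass in any mutant, and it did not pass without WT replicate 1 or 2, without replicate 1 or 3 of its group, or with median-ratio scaling, library size scaling, the length trend removed or a fit of the 2 groups alone. In the Ezh2 ECKO-labelled libraries 0.342% of all genes passed as higher. Pdk1 stood at 0.85 (SE 0.40, edgeR adjusted p 0.15) in Hdac2 ECKO and at 1.20 (SE 0.40, adjusted p 0.69) in beta-catenin GOF, where it had the smallest p of the list. Epas1, an endothelial hypoxia-inducible factor, had the smallest p in Hdac2 ECKO, at 0.75 (SE 0.26, edgeR adjusted p 0.070).

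Other growth cytokines had their smallest p at Tnfsf12 in the Ezh2 ECKO-labelled libraries (−1.27, SE 0.43, edgeR adjusted p 0.10) and at Tnfsf10 in beta-catenin GOF (−1.25, SE 0.38, adjusted p 0.62). Tnfsf10, which encodes TRAIL, stood at 92.2, 307 and 109 CPM in WT, so WT replicate 2 was again the highest. Among other ligands in beta-catenin GOF the smallest p was that of Ccl4, at 0 CPM in all 3 libraries and 0.555, 1.52 and 0.0712 in WT (edgeR adjusted p 0.73).

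As a description over the 12 libraries, which share depth and library differences, the genes most correlated in log2(CPM + 1) were Unc45b (Pearson r 0.93) and Sec14l1 (0.92) for Cxcl12, Snx7 (0.89) and Tmem19 (0.89) for Cxcl1, and Crlf2 (0.88) and Tgfb1 (0.88) for Cxcl10. They were Zfp146 (0.93) and Pias4 (0.91) for Cxcl16, Brd2 (0.89) and Det1 (0.83) for Cx3cl1, Haspin (0.80) and Olfr482 (0.80) for Ackr3, and Lmtk2 (0.89) and Capn15 (0.87) for Csf1.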
